A study of Mus musculus with 4 samples.

Results

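The 5 genes of the Ikaros zinc finger family, Ikzf1, Ikzf2, Ikzf3, Ikzf4 and Ikzf5, were followed in nascent RNA of double positive (DP) thymocytes with and without Tox4. They were taken by symbol from the deposited table, which held 1 entry for each among 24984 genes. TTchem-seq enriches RNA that was labelled with 4-thiouridine during a short pulse. Fragments over a gene, introns included, are therefore read as its transcriptional output. The sample labels describe poly(A) capture instead, and this difference from the study's methods was not resolved here. All 4 libraries came from DP thymocytes of mice carrying floxed alleles of Tox4 (genotype Tox4;F/F). The 2 WT libraries had no Cre, and the 2 cKO libraries (Tox4;F/F;Lck+) carried Cre under the proximal Lck promoter, which starts deleting exons 4 to 6 at an earlier thymocyte stage. The mice were littermates 6 to 8 weeks old. A replicate is a library, and the study describes biological replicates for its genomic assays. The labels do not say whether each library came from 1 mouse, and the p-values measure the spread between these libraries.

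Ikaros family proteins bind DNA through zinc fingers near the N terminus and form homodimers and heterodimers with each other through a pair of zinc fingers at the C terminus. Ikaros (Ikzf1), Helios (Ikzf2) and Aiolos (Ikzf3) are known from lymphocyte development, Eos (Ikzf4) from regulatory T cells, and Pegasus (Ikzf5) is the most distant member. In T cells Ikaros works largely with the NuRD chromatin remodeling complex and with other corepressors, and Helios is best known from regulatory T cells and from thymocytes that receive a strong T cell receptor signal.

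Output is given as CPM, fragments of a gene scaled to the total of its library. Levels of different genes are compared as CPM per kb of the counted gene span, except where CPM is named. The libraries held 38429786 to 48690591 fragments, and defining genes of DP cells were counted in all 4, with Cd4 at 621 to 715 CPM, Cd8a at 383 to 629 CPM and Rag1 at 802 to 1169 CPM. Markers of erythroid cells summed to at most 0.767 CPM, those of thymic epithelium to 1.13, of myeloid and dendritic cells to 13.7 and of B cells to 14.2. The 5 markers of mature single positive cells summed to 484 to 491 CPM in WT and to 428 to 491 CPM in cKO. The share of such cells in the libraries was not tested. Tox4 itself was at 74.04 and 70.3 CPM in WT and at 59.3 and 57.2 CPM in cKO over its whole span, which makes -0.31 on the log2 scale (SE 0.0998; adjusted p-values 0.0453 with DESeq2 and 0.122 with edgeR). The Tox4 call was lost in each of the 4 fits that left out 1 library, with log2 fold changes from -0.34 to -0.28. WT replicate 1 stood apart by Xist, the RNA of the inactive X chromosome: it had 172 CPM there, against 0 to 2.36 CPM elsewhere. The study describes gender-matched littermates, and the sex match of this library with the others is in doubt.

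Of the 5 members, Ikzf2 rose in cKO and the other 4 did not pass the test. Ikzf2, encoding Helios, increased 1.83-fold, and its DESeq2 p-value was the lowest among the 11625 genes whose CPM averaged 1 or more. To be called, a gene needed a DESeq2 adjusted p-value below 0.05, a change of 1.2 times or more in either direction, and an average of 1 CPM or more. By these criteria 3.71% of the 11625 genes were called, 2.14% higher and 1.57% lower in cKO, against 1 of the 5 members. The members not called had fold changes between 0.941 and 1.06.

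The span of Ikzf2 counted in the table runs from 69531210 to 69685960 on chromosome 1 (GRCm38, minus strand). It measures 154751 bp, of which the exons of its curated RefSeq transcript cover 6.09%. Ikzf2 was counted at 406 CPM in WT replicate 1, 372 CPM in WT replicate 2, 721 CPM in cKO replicate 1 and 702 CPM in cKO replicate 2. Both cKO libraries lay far above both WT libraries, and the lower cKO value was 1.73 times the higher WT value. These values rest on 17311 and 18134 fragments in WT and on 27716 and 27915 fragments in cKO. WT averaged 389 ± 23.8 CPM (SD, n = 2), and cKO 712 ± 13.5 CPM (SD, n = 2). On the log2 scale the change was 0.87 (SE 0.0736), which is a fold of 1.83 with a 95% interval from 1.65 to 2.02, and the DESeq2 adjusted p-value was 4.63e-28. The difference was larger than the spread between libraries of a genotype, since WT replicate 1 was at 1.09 times WT replicate 2 and cKO replicate 2 at 0.973 times cKO replicate 1.

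Other tests gave the same call. By quasi-likelihood in edgeR, where 0.654% of genes were called, Ikzf2 had an adjusted p-value of 0.00618 and the 4th lowest p-value of the 11625 genes. With limma voom, which called 0.628% of genes, the adjusted p-value was 0.00712. Ikzf2 was the only member called by either test. In the 4 fits that each left out 1 library the log2 fold change of Ikzf2 ranged from 0.81 to 0.92, and it was called in each of them. Without WT replicate 1, the library that stood apart by Xist, it was 0.92, and without X and Y genes it was 0.87.

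Among the 249 genes called higher in cKO, Ikzf2 ranked 48th by fold change, and the median log2 fold change of the 249 was 0.54. Ikzf2 is a long gene, and long spans collect more fragments, so its place among all genes depends on the scale, percentile 97.9 by CPM and 77.6 by CPM per kb. Of the 1416 genes with a counted span of at least 100 kb, 6.57% were called higher in cKO, and Ikzf2 was the only member of that length.

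**Figure D1:**
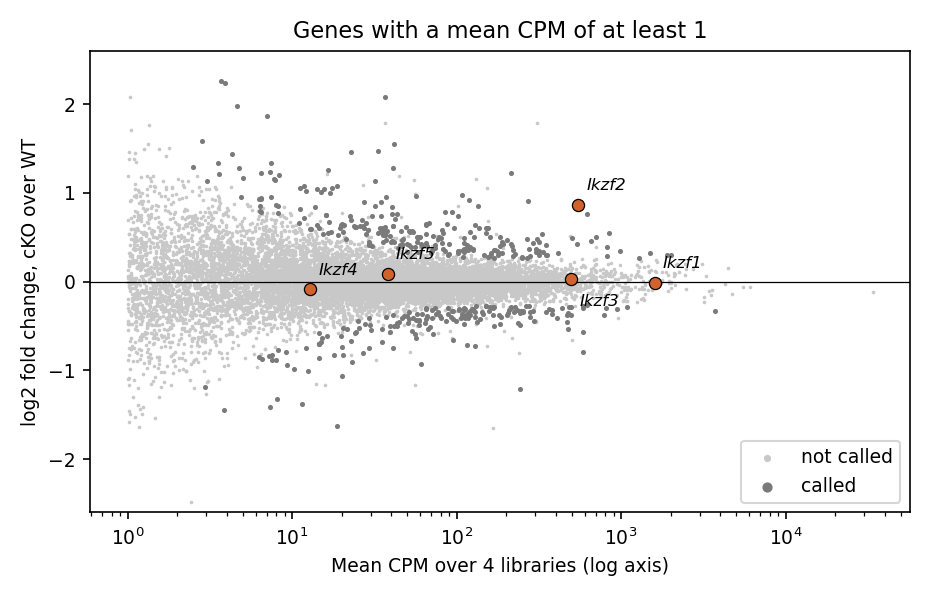
The horizontal axis gives the mean CPM of each gene over the 4 libraries on a log scale and the vertical axis the log2 fold change of cKO over WT, for 11625 genes (light grey, not called; dark grey, called; 2 genes beyond 2.6 on either side are not drawn). Ikzf2, at a log2 fold change of 0.87, is the only called member, and the other 4 members (orange) lie close to 0.

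Ikzf1, encoding Ikaros, had the highest output per kb of the family in every library. Its counted span covers 87002 bp on chromosome 11 (GRCm38, 11685925 to 11772926, plus strand), and curated exons make up 6.51% of it. The table lists transcripts from 2 start sites, 11685925 and 11690177, and counts them together, so output from either start cannot be told apart in these data. The 250 bases before each start (RefSeq, GRCm38.p6) are shown because they differ strongly in base composition. The first, chr11:11685675-11685924, has 82.0% G and C and 44 CpG, and the second, chr11:11689927-11690176, has 47.6% and 1 CpG, beside a median of 52.4% G and C over the same window of 32851 promoters. Capitals mark the letters GGGAA, the core of the site that Ikaros proteins recognise, or TTCCC, the same core on the other strand. Parts of both windows lie in exons of predicted RefSeq models, and none lies in a curated exon.
Ikzf1 first start: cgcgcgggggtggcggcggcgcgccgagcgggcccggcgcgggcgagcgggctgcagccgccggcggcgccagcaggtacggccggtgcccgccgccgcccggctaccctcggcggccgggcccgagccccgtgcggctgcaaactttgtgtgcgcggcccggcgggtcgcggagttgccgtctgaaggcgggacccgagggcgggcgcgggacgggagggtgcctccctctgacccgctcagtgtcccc
Ikzf1 second start: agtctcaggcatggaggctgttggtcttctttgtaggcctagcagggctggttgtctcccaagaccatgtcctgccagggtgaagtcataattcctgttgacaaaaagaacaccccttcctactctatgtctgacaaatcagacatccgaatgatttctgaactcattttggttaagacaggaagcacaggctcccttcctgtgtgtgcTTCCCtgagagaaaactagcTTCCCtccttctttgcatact
The window before the first start holds no match and that before the second holds 2, and 56.2% of the 32851 windows hold at least 1. The table of promoters held 2 of the 5 members, Ikzf1 and Ikzf5, and the window of Ikzf5 (chromosome 7, 131410479 to 131410728, minus strand) held 1 match, with 64.0% G and C. A match of these letters is a description of the sequence and not a binding site.

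Ikzf1 was counted at 1550.1 CPM in WT replicate 1, 1659.5 CPM in WT replicate 2, 1671 CPM in cKO replicate 1 and 1510.5 CPM in cKO replicate 2. The genotypes overlapped, the lowest and the highest value both being cKO libraries. WT averaged 1605 ± 77.4 CPM (SD, n = 2), and cKO 1591 ± 114 CPM (SD, n = 2). The log2 fold change was -0.016 (with SE 0.0762 and DESeq2 adjusted p-value 0.966), and the 95% interval of the fold, from 0.892 to 1.10, bounds the changes that these libraries leave possible.

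Ikzf3, encoding Aiolos, was likewise level between genotypes. Its span is 81339 bp long (chromosome 11, 98464693 to 98546031, minus strand), with 5.04% in curated exons. It was counted at 483 and 495 CPM in WT and at 522 and 478 CPM in cKO. The WT values lay between the cKO values. The log2 fold change was 0.029 (with SE 0.0749 and DESeq2 adjusted p-value 0.927), with a 95% interval of the fold from 0.922 to 1.13.

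Ikzf5 and Ikzf4, encoding Pegasus and Eos, had the lowest output per kb of the family. Ikzf5 (chromosome 7, 131388649 to 131410478, minus strand) was counted at 36.3 and 37.5 CPM in WT and at 40.8 and 37.6 CPM in cKO. Both cKO values lay above both WT values, by as little as 37.6 against 37.5 CPM, a separation in this direction that 24.9% of the 11625 genes showed (24.0% were separated in the other direction). It was not called, with a log2 fold change of 0.085 (with SE 0.120 and DESeq2 adjusted p-value 0.843) and a 95% interval of the fold from 0.901 to 1.25. Ikzf4 (chromosome 10, 128630843 to 128645993, minus strand) was counted at 14.8 and 11.6 CPM in WT and at 13.3 and 11.6 CPM in cKO, from 461 to 631 fragments per library. Its genotypes overlapped, and the log2 fold change was -0.088 (with SE 0.199 and DESeq2 adjusted p-value 0.911). Ikzf4 had the widest 95% interval of the fold, from 0.718 to 1.23, which bounds the changes that these libraries leave possible.

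**Figure D2:**
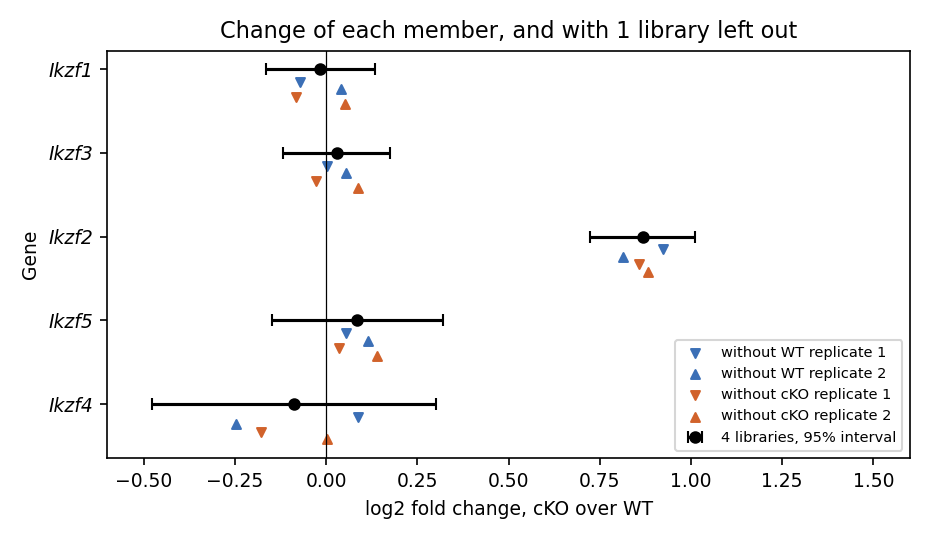
The horizontal axis gives the log2 fold change of cKO over WT for each family member. Black points with bars are the DESeq2 value from 4 libraries with its 95% interval, and triangles are the value with 1 library left out; Ikzf2 stays between 0.81 and 0.92, and the intervals of the other 4 members include 0.

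Per kb, the order of output was Ikzf1, Ikzf3, Ikzf2, Ikzf5 and Ikzf4 in all 4 libraries. Ikzf1 lay between 17.4 and 19.2 CPM per kb and Ikzf3 between 5.88 and 6.42 CPM per kb. Ikzf2 stood at 2.62 and 2.41 CPM per kb in WT and at 4.66 and 4.54 CPM per kb in cKO. Ikzf5 lay between 1.66 and 1.87 CPM per kb and Ikzf4 between 0.765 and 0.977 CPM per kb. The ranges of neighbours in this order did not overlap over the 4 libraries. Ikzf2 kept the same place in cKO, but the gap to Ikzf3 narrowed. Its level per kb was 0.442 and 0.395 of that of Ikzf3 in WT and 0.726 and 0.772 in cKO. Among the 11625 genes, Ikzf1 was at percentile 97.2 of the level per kb, Ikzf3 at 88.9, Ikzf2 at 77.6, Ikzf5 at 55.7 and Ikzf4 at 35.3.

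**Figure D3:**
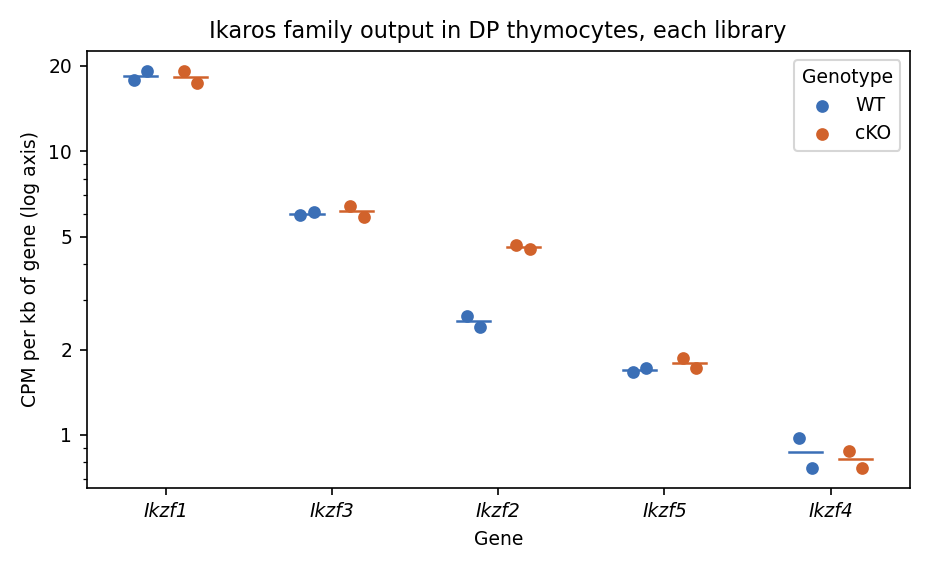
The vertical axis gives output in CPM per kb of the counted span on a log scale, for each family member in each library (blue, WT; orange, cKO; lines, means of 2 libraries). The order of the genes is the same in every library, and Ikzf2 shows the widest gap between genotypes, while the cKO libraries of Ikzf5 lie only just above its WT libraries.

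The balance within the family was followed as the share of each member in the summed CPM per kb of the 5 genes. The share of Ikzf2 was 9.04% and 8.01% in WT and 14.1% and 15.0% in cKO, a gain of 6.02 percentage points. The share of Ikzf1 was 61.4% and 63.5% in WT and 58.1% and 57.4% in cKO, 4.68 points lower (-4.68). Shares sum to the whole, so a rise of Ikzf2 lowers the others by construction, and the output of Ikzf1 itself did not fall beyond its spread. The exact two-sided permutation test over libraries gave p = 0.333 for both shares, and p = 0.417 after adjustment over the 5 members. With 2 libraries against 2, p = 0.333 is the smallest value the exact permutation test can give. The ratio of Ikzf2 to Ikzf1 per kb was 0.147 and 0.126 in WT and 0.243 and 0.261 in cKO, so it was higher in both cKO libraries. The summed output of the family was 2490.2 and 2576 CPM in WT and 2969 and 2739.7 CPM in cKO, and the mean of Ikzf2 alone was 322 CPM higher in cKO.

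Genes next to the members were examined to see whether the surroundings of Ikzf2 moved with it. The nearest genes of the table were Spag16, 141 kb away, and Erbb4, 423 kb away. Spag16 was at 0.329 to 1.01 CPM and Erbb4 at 0.176 to 0.821 CPM in the 4 libraries, far below Ikzf2. No other gene of the table overlapped the span of Ikzf2. The GENCODE annotation places the antisense RNA Gm29114 and the intronic RNAs Gm29112 and Gm28112 inside or across it, and these are not separate entries of the table. Whether the counting used strand is not given in the sources used here, so reads of Ikzf2 and of Gm29114 cannot be told apart.

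Next to Ikzf1, Fignl1, a AAA ATPase gene of DNA repair, was counted at 4.27 and 6.65 CPM in WT and at 8.43 and 8.50 CPM in cKO. It was not called (log2 fold change 0.63 with SE 0.273, and DESeq2 adjusted p-value 0.222). Leaving out WT replicate 1 moved this change to 0.34, and leaving out WT replicate 2 moved it to 0.99. Around Ikzf4, Rps26, a ribosomal protein gene with copies elsewhere in the genome and thus uncertain, had a log2 fold change of 0.40 (DESeq2 adjusted p-value 0.683), and Suox, encoding sulfite oxidase, one of -0.048 (0.960). Around Ikzf5, Pstk, which overlaps it on the other strand and encodes a kinase of selenocysteine synthesis, had 0.17 (0.845), 2310057M21Rik 0.17 (0.701) and Acadsb, encoding an acyl-CoA dehydrogenase, 0.42 (0.387). None of these genes was called in the DESeq2 test of the 4 libraries, but Rps26 was called with a length trend removed (log2 fold change 0.46, adjusted p-value 0.0291). With 1 library left out Rps26 lay between 0.12 and 0.63 on the log2 scale. Grb7 and Zpbp2 beside Ikzf3, 4930512M02Rik beside Ikzf1 and Gm26876 across the start of Ikzf4 had a mean CPM under 1.

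The genes whose output followed each member most closely were found by the root mean square difference of log2 CPM, centred per gene, over the 4 libraries, among the 8152 genes that averaged 10 CPM or more. With 4 libraries this is a description, and many genes fit a flat profile. For Ikzf2 the closest were Nfia, a transcription factor gene, and Nat10, an RNA acetyltransferase gene. Nfia was counted at 97.8 and 94.2 CPM in WT and at 171 and 176 CPM in cKO, and Nat10 at 26.6 and 22.1 CPM in WT and at 45.3 and 45.2 CPM in cKO. They differed from Ikzf2 by 0.041 and 0.049 on the log2 scale, and 8 of the 8152 genes lay within 0.1. Within the same distance lay 3516 genes for Ikzf1 (closest Ndufv2 and Taok2), 4059 for Ikzf3 (Hacd3 and Tbc1d1), 3619 for Ikzf5 (Taf2 and Il6st) and 502 for Ikzf4 (Dbp and Gm1604b).

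Partners of Ikaros proteins showed no called change. Of 19 genes of the NuRD, SIN3 and CtBP corepressors and of BRG1, 18 had a mean CPM of at least 1 and 0 of 18 were called, with a median log2 fold change of 0.036 beside 0.00088 over the 11625 genes. Their log2 fold changes ran from -0.15 to 0.26. Smarca4, encoding the BRG1 ATPase, was at 903 and 873 CPM in WT and at 874 and 898 CPM in cKO, and Mbd2, a NuRD subunit that binds methylated DNA, at 494 and 464 CPM in WT and at 519 and 493 CPM in cKO. Casein kinase 2 phosphorylates Ikaros and the phosphatase PP1, the enzyme that Tox4 is known to regulate, removes the phosphate. Of their 6 subunit genes 0 were called, with a median of -0.029. Ppp1cc had a log2 fold change of -0.013 and Ppp1cb one of 0.063. Of 5 genes of the cereblon ligase, through which lenalidomide-type drugs degrade Ikaros and Aiolos in human cells, 0 were called, with a median of 0.043. Ddb1 had a log2 fold change of -0.080 and Cul4a one of 0.012.

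Genes described as targets of Ikaros in lymphocytes moved in both directions. Of 19 listed, 16 had a mean CPM of at least 1, of which 4 were called higher, 2 lower and 10 not called, with a median log2 fold change of 0.034. The list holds lymphocyte genes in general, so its counts describe no action of the family. Notch3, a Notch receptor of early thymocytes, showed the largest change, from 22.5 and 25.4 CPM in WT to 55.1 and 61.8 CPM in cKO (log2 fold change 1.28 with SE 0.127, and DESeq2 adjusted p-value 1.71e-20, edgeR 0.00813). Notch1, the receptor that commits progenitors to the T lineage, rose from 162 and 176 CPM to 231 and 237 CPM (log2 fold change 0.47, DESeq2 adjusted p-value 3.59e-06, edgeR 0.0389). The other called increases were Il7r, encoding the interleukin 7 receptor, with a log2 fold change of 0.36, and Myc, the growth regulator, with 0.81, from 6.63 and 9.51 CPM to 14.8 and 13.6 CPM.

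The called decreases in that list were Cd8a, encoding the CD8 alpha chain, with a log2 fold change of -0.54, and Rag1, the recombinase gene, with -0.31 and a DESeq2 adjusted p-value of 0.0499, just under the threshold. With edgeR the adjusted p-values of Il7r, Myc, Cd8a and Rag1 were 0.0925, 0.127, 0.0887 and 0.254, so these calls were lost. Leaving out 1 library kept the calls of Notch3 and Cd8a in all 4 fits, although Cd8a moved to -0.35 without WT replicate 2. Notch1 lost its call without cKO replicate 2 (log2 fold change 0.44). Rag1 was called only without WT replicate 1 and fell to -0.12 without WT replicate 2, Myc was called only without WT replicate 2 (1.11), and Il7r in none of the 4 fits (0.30 to 0.42). Genes often tied to Ikaros dosage that were not called included Dntt, the terminal transferase gene, with a log2 fold change of 0.18, Cd4 with 0.048 and Cdk6 with 0.020. Hes1, a Notch target, was at 0.563 to 1.48 CPM, and Igll1 and Vpreb1, the surrogate light chain genes of B cell precursors, at no more than 0.0938 CPM.

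Other transcription factors of the T lineage were set beside the family to see whether a change like that of Ikzf2 was common among them. All 16 had a mean CPM of at least 1, of which 4 were called higher, 1 lower and 11 not called, with a median log2 fold change of 0.090. Myb rose from 579 and 584 CPM in WT to 807 and 844 CPM in cKO (log2 fold change 0.50, DESeq2 adjusted p-value 3.91e-10, edgeR 0.0280), and kept its call in all 4 fits with 1 library left out. Tox, a paralogue of Tox4, had a log2 fold change of 0.39, Runx3, a factor of the CD8 lineage, 0.42 and Bcl6, a repressor, 0.33. Tcf7, encoding TCF1, had -0.33. Their edgeR adjusted p-values were 0.0934, 0.0887, 0.205 and 0.237. The call of Tox was lost without cKO replicate 1 (0.30). Runx3 was called in none of the 4 fits (0.40 to 0.43), Bcl6 only without WT replicate 2 and with 0.18 without WT replicate 1, and Tcf7 only without cKO replicate 1 and with -0.17 without cKO replicate 2. None of the 16 changed as much as Ikzf2. Tcf12, an E protein gene, passed on p (DESeq2 adjusted p-value 0.0160) but not on fold, with a log2 fold change of 0.23. Satb1 and Ets1 were not called (log2 fold changes -0.059 and 0.16).

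**Figure D4:**
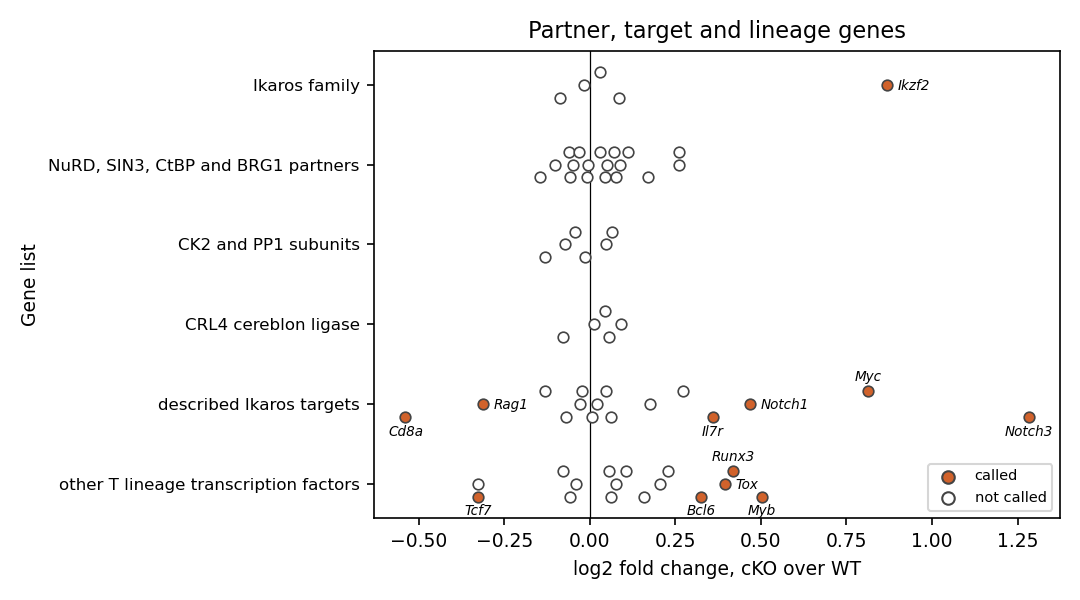
The horizontal axis gives the log2 fold change of cKO over WT for each gene averaging 1 CPM or more, one line per list (filled, called; open, not called; points are spread vertically for visibility). The family has 1 called gene, Ikzf2 at 0.87, the partner lists have 0, and the target and lineage lists have 6 and 5.

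Helios and Eos are abundant in regulatory T cells, so markers of such cells were read beside Ikzf2. Fewer cells of a type and less RNA per cell cannot be told apart in these bulk libraries. The summed output of 5 regulatory T cell markers was 64.7 to 79.3 CPM in WT and 71.9 to 81.1 CPM in cKO, so the genotypes overlapped, and 0 of 5 were called. Foxp3, the defining factor of these cells, was at 2.44 and 2.99 CPM in WT and at 2.33 and 1.72 CPM in cKO, so that both cKO values were lower (log2 fold change -0.43, not called). Tnfrsf18, encoding the receptor GITR, lay the other way, at 8.02 and 7.70 CPM in WT and at 12.2 and 8.70 CPM in cKO (log2 fold change 0.41, not called). Il2ra had a log2 fold change of -0.022. Ctla4 was at 33.8 and 21.5 CPM in WT and at 31.2 and 31.9 CPM in cKO, and Tnfrsf4 had a log2 fold change of -0.093. The 5 markers of innate-like T cells summed to 38.6 to 47.8 CPM in WT and to 26.8 to 30.2 CPM in cKO. Among 4 measured, 1 was called, Zbtb16, encoding PLZF, with a log2 fold change of -1.38 (edgeR adjusted p-value 0.0847), and its call was lost without WT replicate 1 (-1.01) and without cKO replicate 2 (-1.14). Their part in the change of Ikzf2 was not tested.

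Among markers of mature single positive cells, Il7r was called higher, as given above, and Ccr7, a chemokine receptor gene, lower. Ccr7 was at 255 and 243 CPM in WT and at 213 and 181 CPM in cKO, with a log2 fold change of -0.34. Its edgeR adjusted p-value was 0.137, and its call was lost without WT replicate 1 (-0.32) and without cKO replicate 2 (-0.23). Of the B cell markers 3 were measured and 0 called, Ebf1 and Cd79b among them, and of the myeloid and dendritic markers 3 were measured and 0 called, Cd68 and Itgam among them. The myeloid and dendritic genes did not lie one way. Cd68 and Itgam had log2 fold changes of 0.34 and 0.52, and Siglech, a gene of plasmacytoid dendritic cells, was at 2.37 and 1.21 CPM in WT and at 0.416 and 0.729 CPM in cKO (log2 fold change -1.64, with no DESeq2 adjusted p-value and an edgeR adjusted p-value of 0.176). Lyz2 and Csf1r, which averaged under 1 CPM, were also lower in both cKO libraries. Their part in the change of Ikzf2 was not tested.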

How the data were processed

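TTchem-seq was measured in 2 WT and 2 cKO libraries of DP thymocytes, grouped by their titles. Read filtering used fastp, alignment to GRCm38 used STAR, and gene counts rested on RefGene models, as the authors describe; the submitters' processing notes also name featureCounts. The labels describe poly(A) capture and the methods purification of labelled RNA. The deposited expected counts are fragments per gene, and 8.61% of the values are fractions. The other deposited column used here, gene length in bp, equalled the union of the listed start-to-end intervals for all 24926 genes on 1 chromosome, so introns were counted. Strand use for this table, and whether marked duplicates were counted, are not given in the sources used here. Yeast spike-in RNA was not used for scaling, by the authors or here. The libraries held 38429786 to 48690591 fragments each, and the intervals rest on the fitted spread of 2 libraries per genotype.

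Counts were rounded to whole numbers and tested with DESeq2 1.42.0, and DESeq2 is the tool that the study's methods name for this assay. The settings used here were default size factors, the Wald test, unshrunken log2 fold changes, independent filtering at 0.1 and no covariates. Benjamini-Hochberg adjustment ran over the whole table. edgeR 4.0.16 and limma 3.58.1 (voom), on genes averaging 1 CPM or more, were alternatives, beside other factors, filters, a replicate block and leaving out each library. R 4.3.3, Python 3.11.15, pandas 2.3.3, numpy 2.4.6 and matplotlib 3.10.9 were used, and the fits were tested on simulated data. CPM used the totals of the table, and log2 CPM a pseudocount of 0.5. Genes were named by rule: the members, Tox4, adjacent and overlapping genes averaging 1 CPM or more, the called genes of each list or else its 2 genes of highest CPM, and the 2 genes most like each member. Other genes in the text, such as Spag16, Erbb4, Dntt, Cd4, Cdk6, Hes1, Igll1, Vpreb1, Tcf12, Foxp3, Il2ra, Tnfrsf18, Siglech, Lyz2, Csf1r, Satb1 and Ets1, were chosen after their values were seen. The members and lists were chosen with earlier results of these data known. Protein sequences were not analysed here, and some genes of the lists are not reported here.

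The deviations of same-numbered libraries from their group means had a correlation of -0.03 over 11625 genes. With 2 libraries per genotype this value cannot exclude that the replicate numbers pair the libraries.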

Additional observations from a re-analysis of the deposited data

How the results depend on the processing

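Ikzf2 was higher in cKO and called in all 15 alternatives, with a log2 fold change from 0.81 to 0.92 and an adjusted p-value of at most 0.00712. With the replicate block its log2 fold change was 0.87 (DESeq2 adjusted p-value 8.92e-16, edgeR 0.00383), and the block changed no call among the 5 members. Exactly 1 member was called in every alternative, including no fold change limit and a limit of 1.5. The other 4 members were called in none, and their direction is not settled. With 1 library left out, the log2 fold change ranged from -0.082 to 0.051 for Ikzf1, from -0.028 to 0.087 for Ikzf3, from -0.25 to 0.088 for Ikzf4 and from 0.034 to 0.14 for Ikzf5, and it was -0.011 for Ikzf3 with a length trend removed.

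The gain in share of Ikzf2, 6.02 percentage points, ranged from 5.51 to 6.54 with 1 library left out and was 9.58 for shares of CPM not divided by length, where longer genes weigh more. Of 67 partner, target, lineage and adjacent genes tested, 11 were called, against 3 with edgeR, 3 with limma voom, 5 with the replicate block in DESeq2, 3 with the replicate block in edgeR and 4 to 7 with 1 library left out, when a genotype held 1 library assumed to vary like the other. The cause was not tested. Over all genes DESeq2 called 249 higher and 182 lower, edgeR 59 and 17, limma voom 57 and 16, and the replicate block 121 and 72 in DESeq2 and 67 and 29 in edgeR.

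Leaving out 1 library was recomputed for the genes named by rule and not for the genes chosen after their values were seen. Among the former, of those not called, the sign changed for Suox (-0.12 to 0.023), Smarca4 (-0.029 to 0.021), Ppp1cc (-0.061 to 0.038), Cul4a (-0.0065 to 0.034), Ctla4 (-0.097 to 0.54), Tnfrsf4 (-0.39 to 0.16), Ndufv2 (-0.067 to 0.058), Taok2 (-0.079 to 0.034), Hacd3 (-0.026 to 0.094), Tbc1d1 (-0.034 to 0.096), Dbp (-0.28 to 0.058) and Gm1604b (-0.24 to 0.074). With a length trend removed it was -0.0097 for Cul4a and -0.017 for Tbc1d1.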

Other observations

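Helios is known to be induced in thymocytes that receive a strong T cell receptor signal, so 10 genes of that signal and of thymic selection, listed after the change of Ikzf2 had been seen, are described here without a test of the list. Of 8 measured, 1 was called higher, 1 lower and 6 not called, with a median log2 fold change of -0.21. Both cKO libraries lay below both WT libraries for 5 of the 8 and above them for 2, where 24.0% and 24.9% of the 11625 genes did so. Nr4a3, an orphan nuclear receptor gene, rose from 70.0 and 73.7 CPM in WT to 84.9 and 101 CPM in cKO (log2 fold change 0.37, DESeq2 adjusted p-value 0.0230), while its relative Nr4a1 was at 64.0 and 69.8 CPM in WT and at 61.5 and 69.7 CPM in cKO. Egr1, an early response gene, fell from 19.1 and 16.9 CPM to 10.6 and 11.5 CPM (log2 fold change -0.70, DESeq2 adjusted p-value 0.00406). With edgeR the adjusted p-values of Nr4a3 and Egr1 were 0.145 and 0.0838, and neither was called in any of the 4 fits with 1 library left out, where their log2 fold changes ran from 0.23 to 0.50 and from -0.78 to -0.62. Bcl2l11, the pro-apoptotic gene encoding BIM, was at 272 and 288 CPM in WT and at 311 and 329 CPM in cKO, which was not called, and Cd5, Cd69 and Pdcd1 had log2 fold changes of -0.22, -0.39 and -0.19, also not called. Itm2a, a gene of thymocyte selection, had the largest change among those not called, from 5.89 and 7.23 CPM in WT to 4.58 and 4.35 CPM in cKO (log2 fold change -0.56, DESeq2 adjusted p-value 0.324).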
